A study of Homo sapiens with 60 samples.

Results

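Polygalae Radix is the dried root of Polygala tenuifolia, a medicinal root known for its triterpene saponins. The data compared here are the 2 libraries of HT29 cells that received its ethanol extract at 380 µg/mL (high dose) and the 2 that received it at 15.2 µg/mL (low dose), 4 of the 60 libraries in all, chosen by their labels and by their shared library set. HT29 is an established human colorectal adenocarcinoma cell line that keeps features of absorptive and mucus-secreting gut epithelium. In the study, cells were exposed for 24 h to a single herb's ethanol extract or to that of a formula, and messenger RNA was sequenced to describe how each extract acts on the transcriptome. The high dose of each extract was its IC20, the concentration at 20% inhibition, where this lay under 500 µg/mL, as for Polygalae Radix. The medium and low doses were successive 5-fold dilutions of it.

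The groups used are Polygalae Radix at 380 µg/mL and at 15.2 µg/mL (2 libraries each), with its medium dose of 76 µg/mL (2 libraries) described beside them. Aucklandiae Radix, another root extract of the same library set, was used at 370 µg/mL and at 14.8 µg/mL (2 libraries each). The formula Guibi-tang, from another set, was used at 500 µg/mL and at 20 µg/mL (3 libraries each). All are HT29 cells in the same medium, with no genetic change. The high dose is thus set against a low dose of the same extract and not against the vehicle, so a change that 15.2 µg/mL already gives is not seen. An extract is a mixture, a single tumour line stands for the gut here, and no label says that the replicates of a dose were grown apart. A p-value here therefore reflects library-to-library spread only, part or all of which could be technical. In a bulk sample fewer cells of a type and less RNA per cell cannot be told apart.

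Several of the pathways below meet in the response to nutrient and protein stress. The transcription factor ATF4, made when the integrated stress response slows translation, turns on enzymes that make serine and asparagine, the tRNA synthetases that load amino acids onto tRNAs, and stress effectors such as GDF15. The folliculin complex and the factors TFEB and TFE3 link the lysosome to nutrient signalling, and NRF2 turns on genes of glutathione, iron storage and NADPH supply. In the colon epithelium, villin and other brush border proteins mark absorptive cells, while WNT signals keep crypt cells immature.

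The 4 libraries held 19977103 to 23092545 counts each, within the 18690501 to 36796414 of the 56 libraries that shared the model. Mitochondrial genes took 9.55% to 11.2% of their counts, against 6.19% to 12.3% over the 56. Replicates of a dose differed by more than counting noise, with chi-square values per degree of freedom of 8.43 at high and 3.99 at low dose, so none was treated as a repeat deposit. One library of another herb, labelled low-dose replicate 2 of Saposhnikoviae Radix, stood apart, with a correlation of 0.844 with its nearest group mate, against at least 0.996 for the others, and was left out of the model. One of the 4 libraries also stood apart in a class of genes. Processed pseudogenes, intronless copies of other genes, summed to 3060 CPM in low-dose replicate 3. The sum was 1950 CPM in low-dose replicate 2 and 1730 to 3150 CPM in the other 55. Results on pseudogenes are therefore given with and without low-dose replicate 3. CPM here are read counts scaled to a common library total, not corrected for length, with each total first multiplied by its TMM factor from edgeR. The factors were 1.08 and 1.064 at 380 µg/mL, against 1.011 and 1.006 at 15.2 µg/mL. The high-dose CPM values are thus lowered more by this step than the low-dose ones.

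The defining markers of colon epithelium were present at both doses. EPCAM, the epithelial adhesion molecule, had 386 and 402 CPM at 380 µg/mL, against 502 and 498 CPM at 15.2 µg/mL. KRT8, a simple epithelial keratin, had 4134 and 3669 CPM at 380 µg/mL, against 6207 and 6061 CPM at 15.2 µg/mL. Of the 10 fibroblast and the 10 blood cell markers, 2 and 3 passed the filter on low counts. The epithelial summed level was 7690 to 8570 CPM at 380 µg/mL, against 12400 to 12500 CPM at 15.2 µg/mL. Most of this sum came from KRT8 and a second keratin, KRT18, so it says little of the other markers. KRT18 had 2880 and 2540 CPM at 380 µg/mL, against 4007 and 4057 CPM at 15.2 µg/mL.

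The high dose shifted a broad set of genes, mostly by modest amounts. Of 16978 genes tested, 4984 (29.4%) differed between 380 and 15.2 µg/mL, 2263 (13.3%) higher and 2721 (16.0%) lower at the high dose (edgeR, quasi-likelihood F-test, with a p under 0.05 after Benjamini-Hochberg adjustment, the rule for every gene said below to have risen or fallen). Changes of at least 2-fold were fewer, 81 higher and 319 lower. The lower counts include processed pseudogenes, with 8 higher and 104 lower of 628. Their median log2 change of -0.45 was -0.02 without low-dose replicate 3. Of 13090 protein-coding genes 2072 were higher and 2485 lower. The median size of the change among called genes was 0.36 on the log2 scale, and the median over all genes tested was -0.01. The 29.4%, 13.3% and 16.0% over all genes tested are the background for every list count below. The lists were chosen with earlier results of these data known. Without high-dose replicate 2 the number of higher genes was 1480, and with the outlying library in the model 1459 genes in all were called. The groups did not overlap for 4938 of the called genes, but also for 60.7% of all genes tested, so that separation alone says little with 2 libraries a group.

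Among the 12 largest rises of well-measured genes (a mean of at least 5 CPM at either dose) were transcripts of signalling, stress and mucus genes. IGFL2-AS1, a long non-coding RNA (ENSG00000268621, GRCh38 chromosome 19, 46189166 to 46203083), had 21.6 and 20.3 CPM at 380 µg/mL, against 6.69 and 5.86 CPM at 15.2 µg/mL, a log2 change of 1.74 ± 0.12 (SE; adjusted p 4.2e-16). Both high-dose libraries lay above both low-dose libraries, with a mean 3.35-fold higher. IGFL2-AS1 is an antisense gene, and the strand setting of the counting is not given in the sources used here, so reads of an overlapping gene may be in its count. MUC17, a membrane mucin, rose by 1.30 ± 0.23 with an uneven pair of high-dose libraries, 13.9 and 21.2 CPM at 380 µg/mL, against 7.28 and 6.97 CPM at 15.2 µg/mL. PKIB, an inhibitor of protein kinase A, rose by 1.29 ± 0.09, the Notch ligand JAG1 by 1.19 ± 0.08, the serine protease PRSS22 by 1.18 ± 0.09 and UAP1L1 by 1.28 ± 0.12 (log2). DUSP5, GDF15, SQSTM1, OSGIN1 and NEAT1 are also among the 12 and are described with their pathways.

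The 12 largest falls included 3 pseudogenes that depend on low-dose replicate 3. ANXA2P2, a copy of annexin A2, had 8.39 and 4.59 CPM at 380 µg/mL, against 9.75 and 49.2 CPM at 15.2 µg/mL, and its log2 change of -2.21 became -0.59 (adjusted p 0.504) without that library. RPL17P6 and PDIA3P1 likewise lost their calls without it. In that library 50 of 628 processed pseudogenes were over 3 times higher than in low-dose replicate 2, and 0 were over 3 times lower (0.5 CPM added to each value). Processed pseudogenes gave 8 higher and 104 lower with it, and 7 higher and 9 lower without it. The other 9 large falls kept their calls whichever of the 4 libraries was left out.

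VIL1, which encodes the actin bundler villin of the brush border (ENSG00000127831, chromosome 2, 218419092 to 218453295), had 55.9 and 53.3 CPM at 380 µg/mL, against 164 and 162 CPM at 15.2 µg/mL, a log2 change of -1.58 ± 0.04 (adjusted p 6.20e-30). ALDH1A1, the retinal dehydrogenase (ENSG00000165092, chromosome 9, 72900662 to 73080442), had 265 and 271 CPM at 380 µg/mL, against 825 and 809.5 CPM at 15.2 µg/mL, a log2 change of -1.61 ± 0.04. In both genes the replicates lay close together and the doses far apart. Other large falls had log2 changes of -1.54 ± 0.11 for the GABA receptor subunit GABRP, -1.48 ± 0.15 for the protease inhibitor SERPINA5, -1.46 ± 0.08 for the selenium-binding SELENBP1 and -1.46 ± 0.15 for the water channel AQP1. IQGAP1, a scaffold of the actin cortex, had 216 and 234 CPM at 380 µg/mL, against 603 and 598 CPM at 15.2 µg/mL, a log2 change of -1.41 ± 0.08. PHGDH and ASNS complete the 12.

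**Figure D1:**
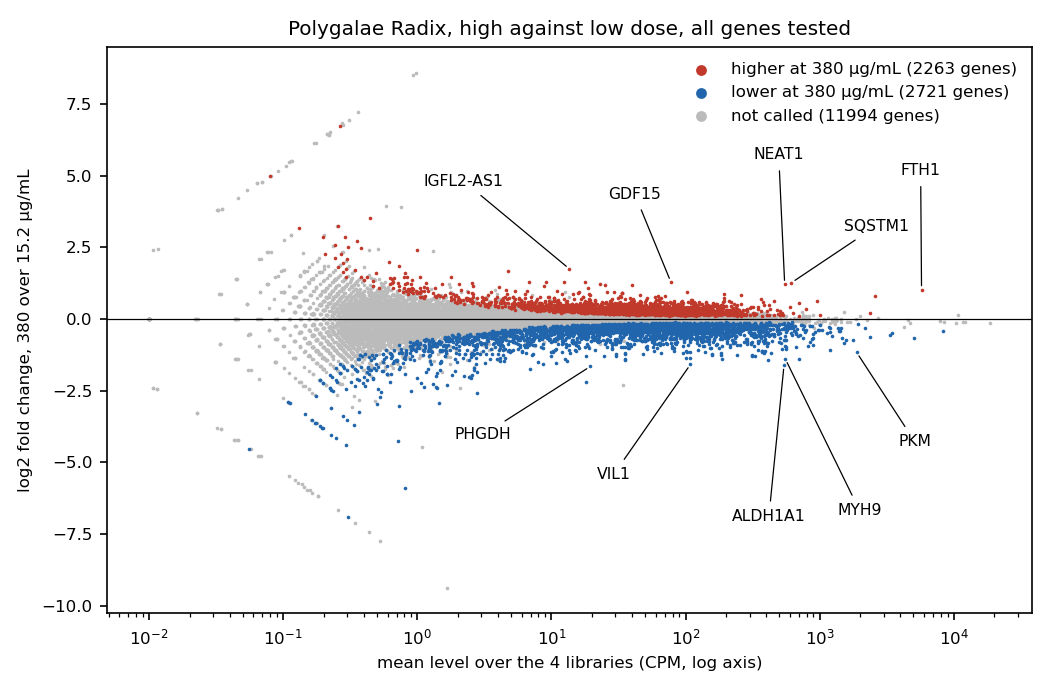
Mean level over the 4 libraries (CPM, log axis) against the log2 fold change of 380 over 15.2 µg/mL for each of the 16978 genes tested, with called genes in colour and some of the named genes marked. The 2263 higher and 2721 lower genes span the range of levels, and most called changes are under 2-fold.

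The 6 called genes with the highest CPM moved in opposite directions. FTH1, the heavy chain of ferritin, which stores iron, had 7834 and 7570 CPM at 380 µg/mL, against 3611 and 4002 CPM at 15.2 µg/mL, and the light chain FTL had 3341 and 3222 CPM at 380 µg/mL, against 1833 and 1890 CPM at 15.2 µg/mL. Both ferritin chains rose, by 1.02 ± 0.07 and 0.82 ± 0.07 on the log2 scale. EEF1A1, the translation elongation factor, fell by 0.42, the beta actin ACTB by 0.48, and the keratins KRT18 and KRT8 by 0.57 and 0.65. In each of these 4 genes both high-dose libraries lay under both low-dose libraries. The 6 genes have processed copies elsewhere in the genome, and reads shared with a copy could be divided between them, so their levels carry that uncertainty.

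The medium dose of 76 µg/mL mostly fell between. Its mean lay between the other doses for 4064 of the 4984 called genes (81.5%) and for 36.3% of the 11994 genes that were not called. VIL1 had 164 and 162 CPM at 15.2 µg/mL, 118 and 123 CPM at 76 µg/mL and 55.9 and 53.3 CPM at 380 µg/mL. Of the genes higher at 380 µg/mL, 137 were at least as high at 76 µg/mL and 262 were at or under their low-dose level there. PKIB had 10.3 and 10.3 CPM at 15.2 µg/mL, 25.6 and 25.4 CPM at 76 µg/mL and 24.7 and 25.5 CPM at 380 µg/mL, so its full rise was present at the medium dose. UAP1L1 was higher at the medium dose, with 16.0 and 19.0 CPM, than at the high dose, with 13.3 and 12.7 CPM. Of the genes lower at 380 µg/mL, 460 were at or above their low-dose level at 76 µg/mL. KRT8 was one of these, with a mean of 6811 CPM at 76 µg/mL. These positions are descriptions, since the same libraries made the calls.

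**Figure D2:**
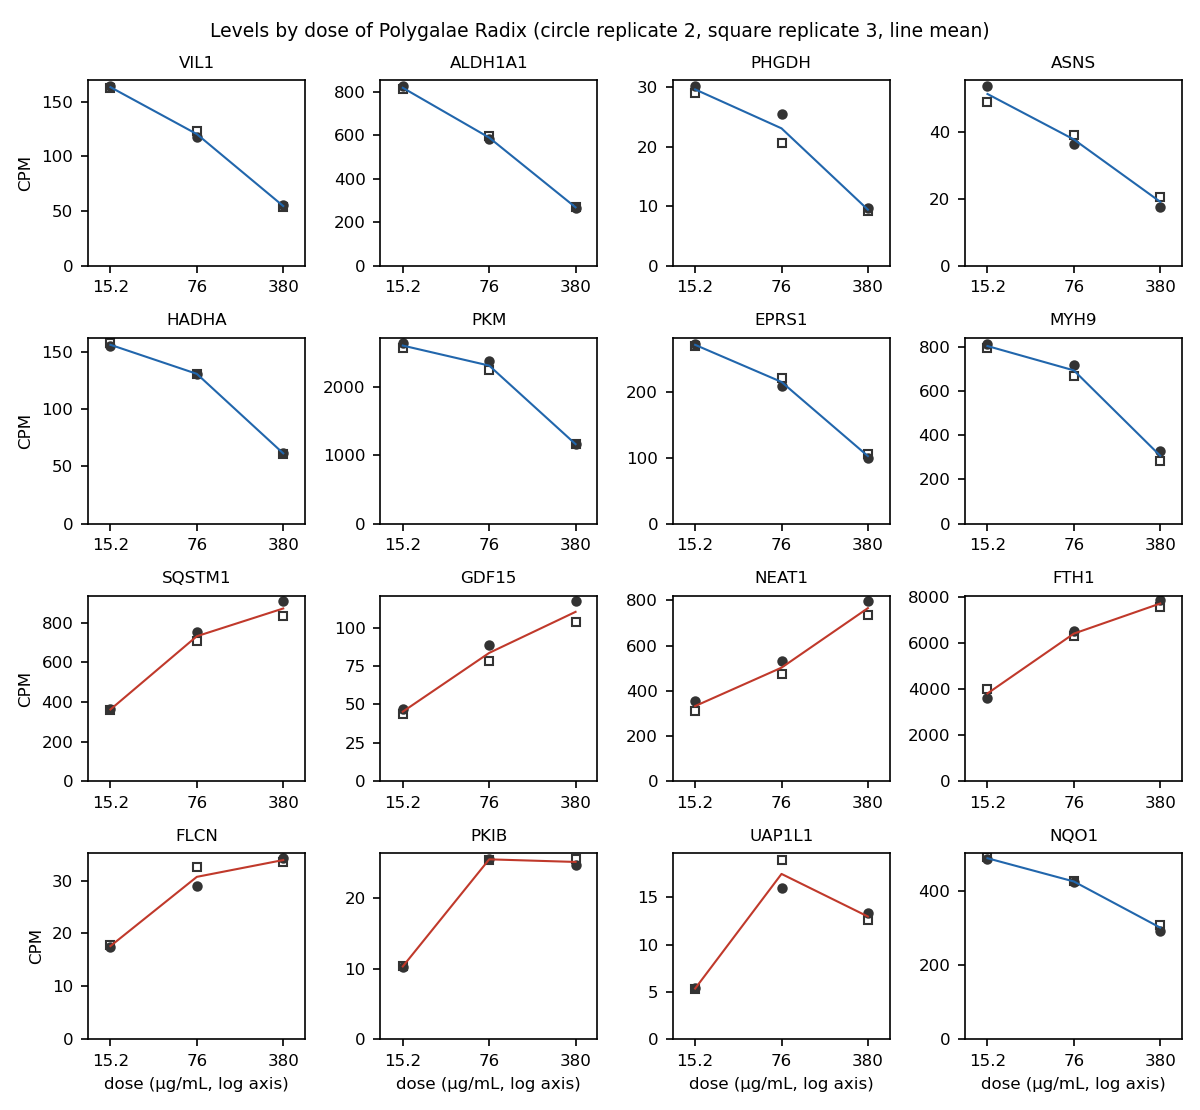
CPM in each Polygalae Radix library (circles, replicate 2; squares, replicate 3) and the mean (line) against dose (µg/mL, log axis) for 16 genes, the first 8 and NQO1 lower and the other 7 higher at 380 µg/mL. Most fall or climb over both steps, while PKIB and UAP1L1 are already at or above their high-dose level at 76 µg/mL.

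Genes of serine and asparagine synthesis fell together. Of 13 tested members of this list of ATF4 targets, 0 were higher, 10 lower and 3 not called, with a median log2 change of -0.75. PHGDH, the entry enzyme of serine synthesis (ENSG00000092621, chromosome 1, 119648411 to 119744226), had 9.64 and 9.17 CPM at 380 µg/mL, against 30.1 and 29.1 CPM at 15.2 µg/mL, a log2 change of -1.65 ± 0.08 (adjusted p 3.01e-20). The asparagine synthetase gene ASNS (ENSG00000070669), on chromosome 7 from 97852118 to 97872542, had 17.7 and 20.6 CPM at 380 µg/mL, against 53.9 and 49.1 CPM at 15.2 µg/mL, a log2 change of -1.42 ± 0.06 (adjusted p 4.48e-22). In both genes the high-dose libraries lay far under the low-dose libraries. SHMT2, the mitochondrial enzyme that turns serine into glycine, fell by 1.02 and PSAT1, the transaminase of serine synthesis, by 0.87. MTHFD2, of mitochondrial folate metabolism, had 122 and 127 CPM at 380 µg/mL, against 124 and 121 CPM at 15.2 µg/mL, and was not called (chosen after its value was seen).

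The tRNA synthetases were lower almost throughout. Of 20 members 0 were higher, 19 lower and 1 not called, with a median of -0.56. EPRS1, which loads glutamate and proline, had 99.5 and 106 CPM at 380 µg/mL, against 274 and 270.5 CPM at 15.2 µg/mL, a log2 change of -1.41 ± 0.08. LARS1, for leucine, had 83.0 and 88.6 CPM at 380 µg/mL, against 193 and 189.8 CPM at 15.2 µg/mL, a change of -1.16 ± 0.05, and VARS1, for valine, fell by 0.95. The member not called was FARSA, for phenylalanine, with 76.2 and 66.2 CPM at 380 µg/mL, against 69.8 and 73.4 CPM at 15.2 µg/mL. The called changes ran from -1.41 in EPRS1 to -0.17 in KARS1 (named as the end of the range).

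The promoters of these genes are shown because the amino acid response element that ATF4 binds lies in some of them. The core searched, TGATGNAA on either strand, was in 3.62% of 35116 RefSeq promoters on GRCh38.p14, each 250 bases before and 50 after the start. It was in 2 of the 8 list members of serine and asparagine synthesis that have such an entry, ASNS and MTHFD1L, in 6 of 16 tRNA synthetases (37.5%), AARS1, CARS1, IARS1, MARS1, NARS1 and TARS1, in 3 of 13 amino acid transporters (23.1%) and in 2 of 14 stress effectors (14.3%). The 6 synthetases are among the 19 of 20 that were lower, so their direction is not particular to genes with a match. Directions of the matching transporters and stress effectors are not given here. A match is a description of letters and not a bound site. Both serine-list promoters and those of the tRNA synthetases MARS1 and AARS1 follow, 5′ to 3′ on the gene's strand with the match in capitals, and lie at chr7:97872359-97872658 (minus strand), chr6:150866236-150866535 (plus), chr12:57487818-57488117 (plus) and chr16:70289457-70289756 (minus).
ASNS: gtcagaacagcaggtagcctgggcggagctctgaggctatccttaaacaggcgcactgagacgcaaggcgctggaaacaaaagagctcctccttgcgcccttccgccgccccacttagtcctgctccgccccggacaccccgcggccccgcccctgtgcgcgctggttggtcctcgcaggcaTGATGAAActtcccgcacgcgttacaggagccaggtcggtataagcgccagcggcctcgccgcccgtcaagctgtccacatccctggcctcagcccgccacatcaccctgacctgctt
MTHFD1L: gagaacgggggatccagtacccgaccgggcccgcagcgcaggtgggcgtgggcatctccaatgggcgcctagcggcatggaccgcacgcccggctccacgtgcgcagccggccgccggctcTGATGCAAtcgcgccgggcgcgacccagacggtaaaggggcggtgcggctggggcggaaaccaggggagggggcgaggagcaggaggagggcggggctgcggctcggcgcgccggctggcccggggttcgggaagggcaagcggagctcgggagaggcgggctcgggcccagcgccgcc
MARS1: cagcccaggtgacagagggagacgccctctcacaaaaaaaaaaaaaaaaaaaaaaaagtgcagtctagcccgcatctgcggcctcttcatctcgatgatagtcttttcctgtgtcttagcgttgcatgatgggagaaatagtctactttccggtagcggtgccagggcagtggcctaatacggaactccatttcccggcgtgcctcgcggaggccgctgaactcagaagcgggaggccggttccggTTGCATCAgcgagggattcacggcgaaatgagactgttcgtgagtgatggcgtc
AARS1: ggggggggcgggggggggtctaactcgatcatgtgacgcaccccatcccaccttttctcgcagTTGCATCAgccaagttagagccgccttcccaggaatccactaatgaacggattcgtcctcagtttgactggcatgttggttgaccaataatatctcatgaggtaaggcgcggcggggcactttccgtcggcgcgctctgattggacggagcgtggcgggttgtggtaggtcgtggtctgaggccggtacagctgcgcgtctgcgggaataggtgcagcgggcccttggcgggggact

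In ASNS the match TGATGAAA begins 68 bases before the start, and the gene fell by 1.42. In MTHFD1L, of mitochondrial folate metabolism, TGATGCAA begins 129 bases before the start, and its level was 33.1 and 31.1 CPM at 380 µg/mL, against 41.3 and 43.2 CPM at 15.2 µg/mL, a fall of 0.40. MARS1 and AARS1, which load methionine and alanine, hold the match on the opposite strand, written TTGCATCA here, and both fell by 0.72.

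The stress effectors of the same pathway did not move together. Of 15 tested members 4 were higher, 3 lower and 8 not called, with a median of 0.14. Without high-dose replicate 2 the median was -0.02 and 2 were higher. GDF15, a secreted stress cytokine (ENSG00000130513, chromosome 19, 18374731 to 18389176), had 117 and 103 CPM at 380 µg/mL, against 47.2 and 43.5 CPM at 15.2 µg/mL, a log2 change of 1.28 ± 0.10 (adjusted p 2.24e-14). PPP1R15A, which restores translation after stress, had 78.0 and 69.7 CPM at 380 µg/mL, against 49.6 and 43.5 CPM at 15.2 µg/mL, a change of 0.67 ± 0.14. CHAC1, which breaks down glutathione, had 1.72 and 1.44 CPM at 380 µg/mL, against 3.11 and 2.67 CPM at 15.2 µg/mL, and fell by 0.87. The call of the stress factor DDIT3, with 0.56 ± 0.17, was lost without high-dose replicate 2 or low-dose replicate 3. ATF4 itself had 266 and 270.1 CPM at 380 µg/mL, against 242 and 245 CPM at 15.2 µg/mL, and was not called (adjusted p 0.1; chosen after its value was seen). Amino acid transporters split evenly, with 4 higher, 4 lower and 6 not called, the 4 higher being 2 without high-dose or low-dose replicate 3. SLC3A2, the shared heavy chain of several of them, had 231 and 212 CPM at 380 µg/mL, against 155 and 157 CPM at 15.2 µg/mL, a rise of 0.50, while the serine and alanine carrier SLC1A4 had 9.09 and 8.71 CPM at 380 µg/mL, against 13.4 and 14.6 CPM at 15.2 µg/mL, a fall of 0.66.

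Glycolytic enzymes fell. Of 27 tested genes of glycolysis and the hypoxia response 3 were higher, 18 lower and 6 not called, with a median of -0.39. PKM, pyruvate kinase, had 1167 and 1165 CPM at 380 µg/mL, against 2654 and 2575 CPM at 15.2 µg/mL, a log2 change of -1.17 ± 0.05 (adjusted p 1.74e-22). PGK1, phosphoglycerate kinase, had 232 and 236 CPM at 380 µg/mL, against 506 and 506 CPM at 15.2 µg/mL, a change of -1.11 ± 0.05, enolase ENO1 fell by 1.06 and lactate dehydrogenase LDHA by 0.99. In all 4 enzymes both high-dose libraries lay far under both low-dose libraries. The 3 that rose were the glucose transporter SLC2A1, with 0.17 ± 0.04, the neuronal enolase ENO2, with 0.51 ± 0.08, and the peptide hormone adrenomedullin ADM, with 0.83 ± 0.18 (named because they are so few).

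Fatty acid oxidation fell alongside. Of 21 members of the list of fatty acid oxidation and PPAR targets 1 was higher, 16 were lower and 4 not called, with a median of -0.41. HADHA, the alpha subunit of the mitochondrial trifunctional protein that oxidises long-chain fat, had 61.6 and 61.0 CPM at 380 µg/mL, against 155 and 158 CPM at 15.2 µg/mL, a log2 change of -1.35 ± 0.05 (adjusted p 1.33e-25). Its partner HADHB had 26.1 and 26.0 CPM at 380 µg/mL, against 48.6 and 45.4 CPM at 15.2 µg/mL, a change of -0.85 ± 0.07. DECR1, a reductase for unsaturated fat, fell by 1.12. The lipid droplet protein PLIN2 was the member that rose, with 9.55 and 9.64 CPM at 380 µg/mL, against 6.87 and 6.29 CPM at 15.2 µg/mL.

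Of 26 nuclear genes of the respiratory chain 0 were higher, 20 lower and 6 not called (median -0.35). ATP5F1A, of ATP synthase, had 141 and 147 CPM at 380 µg/mL, against 291 and 282 CPM at 15.2 µg/mL, a change of -0.99 ± 0.05, UQCRC2 and UQCRC1, of complex III, fell by 0.80 and 0.70, and ATP5F1C, also of ATP synthase, changed by -0.60 ± 0.07. The 13 genes of the mitochondrial genome gave 0 calls in the edgeR model of 56 libraries, 0 with DESeq2 and 0 at an unadjusted p under 0.05, with a median of -0.12 that was 0.01 without high-dose replicate 2. Without the filter on low counts edgeR called 2 of them lower. MT-CO1, of complex IV, had 16030 and 19560 CPM at 380 µg/mL, against 19190 and 19720 CPM at 15.2 µg/mL. MT-CO1 and MT-CO3 changed by -0.13 ± 0.12 and -0.09 ± 0.13, wider SEs than the 0.05 of ATP5F1A and the 0.07 of ATP5F1C. A change of the same size is thus called less readily in these mitochondrial genes. Nuclear and mitochondrial genes of the respiratory chain gave different counts of calls, and the difference between the lists was not tested.

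Of 13 genes of fatty acid synthesis 0 were higher, 5 lower and 8 not called, with a median of -0.41 that was -0.16 without low-dose replicate 3. The lower ones included ACLY, which makes cytosolic acetyl-CoA, with 228 and 229 CPM at 380 µg/mL, against 403 and 391 CPM at 15.2 µg/mL, and the fatty acid synthase FASN, with 621 and 553 CPM at 380 µg/mL, against 941 and 898 CPM at 15.2 µg/mL. ACACA, which makes malonyl-CoA, and SCD, a desaturase, changed by -0.60 ± 0.06 and -0.47 ± 0.05. Sterol synthesis showed no shared direction, with 4 higher, 6 lower and 15 not called of 25 and a median of -0.04. The 4 higher were 1 or 2 without high-dose replicate 3 or either low-dose library, and the median was 0.06 without that high-dose library. ACAT2, an early thiolase, fell by 0.41 and LSS, lanosterol synthase, by 0.30. SREBF2, the factor that turns on sterol synthesis, had 237 and 222 CPM at 380 µg/mL, against 277 and 277 CPM at 15.2 µg/mL, and FDFT1, squalene synthase, had 156 and 158 CPM at 380 µg/mL, against 189 and 186 CPM at 15.2 µg/mL, log2 changes of -0.27 ± 0.05 and -0.26 ± 0.05.

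Chaperones and the proteasome were lower. Of 21 tested heat shock chaperones 2 were higher, 14 lower and 5 not called, with a median of -0.33. HSP90AA1, the inducible cytosolic HSP90, had 543 and 576 CPM at 380 µg/mL, against 1097 and 1033 CPM at 15.2 µg/mL, a log2 change of -0.93 ± 0.08 (adjusted p 9.61e-13). HSP90AB1, its constitutive form, had 1109 and 1083 CPM at 380 µg/mL, against 1988 and 1894 CPM at 15.2 µg/mL, a change of -0.82 ± 0.05, and HSPD1, the mitochondrial HSP60, had 599 and 633 CPM at 380 µg/mL, against 1099 and 1059 CPM at 15.2 µg/mL, a change of -0.81 ± 0.05. HSPA4L, of the HSP110 family, fell as well, by 0.70. The 2 that rose were the co-chaperones DNAJB1, with 0.23 ± 0.06, and BAG3, with 0.20 ± 0.06 (named because they are so few). Both lost their call without high-dose replicate 2, without low-dose replicate 2 and with the 4 libraries alone.

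The heat shock element core, GAANNTTC, which reads the same on both strands, was in 7 of the 21 promoters, against 6.77% of all. Of those 7 genes HSPA1A, HSPA8, HSPB1 and TCP1 fell, and CHORDC1, DNAJA1 and HSPA1B were not called. HSPA1A and HSPA1B are near-identical copies, so the split of reads between them is uncertain. HSPA8, the constitutive HSP70, holds it at 2 places, beginning 230 and 50 bases before the start, and is shown for this reason (chr11:123062087-123062386, minus strand, GRCh38.p14, RefSeq, matches in capitals).
HSPA8: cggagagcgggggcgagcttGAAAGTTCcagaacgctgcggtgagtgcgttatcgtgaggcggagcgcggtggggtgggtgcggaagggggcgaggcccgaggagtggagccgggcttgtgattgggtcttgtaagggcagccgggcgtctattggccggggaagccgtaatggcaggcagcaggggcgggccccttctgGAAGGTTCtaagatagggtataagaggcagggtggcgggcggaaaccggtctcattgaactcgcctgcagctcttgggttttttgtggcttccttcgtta

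HSPA8 itself had 1866 and 1973 CPM at 380 µg/mL, against 2378 and 2446 CPM at 15.2 µg/mL, a modest change of -0.33 ± 0.04 on the log2 scale.

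In the endoplasmic reticulum 1 of 22 chaperones and unfolded protein response genes was higher, 14 were lower and 7 not called, with a median of -0.25. The 1 higher call was lost without high-dose replicate 3 and without low-dose replicate 2. HSP90B1, the HSP90 of this compartment, had 405 and 414 CPM at 380 µg/mL, against 709 and 667 CPM at 15.2 µg/mL, a change of -0.75 ± 0.08. PDIA3, a disulfide isomerase, had 408 and 414 CPM at 380 µg/mL, against 676 and 687 CPM at 15.2 µg/mL, a change of -0.73 ± 0.05, and the master chaperone HSPA5 had 288 and 289.7 CPM at 380 µg/mL, against 440 and 428 CPM at 15.2 µg/mL, a change of -0.59 ± 0.05. Of 25 proteasome subunits 0 were higher, 19 lower and 6 not called, with a median of -0.26. PSMD1, of the regulatory particle, had 121 and 127 CPM at 380 µg/mL, against 199.6 and 200.4 CPM at 15.2 µg/mL, a change of -0.69 ± 0.04, its neighbour in the particle PSMD2 fell by 0.62, and the core subunits PSMB3 and PSMA4 by 0.48 and 0.44.

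Cytoskeletal genes were lower. Of 23 tested genes of the actin cytoskeleton and the serum response factor 3 were higher, 15 lower and 5 not called, with a median of -0.44. MYH9, the heavy chain of non-muscle myosin (ENSG00000100345, chromosome 22, 36281277 to 36388067), had 329 and 284 CPM at 380 µg/mL, against 813 and 792 CPM at 15.2 µg/mL, a log2 change of -1.39 ± 0.08. TLN1, which ties integrins to actin, had 99.8 and 91.0 CPM at 380 µg/mL, against 224 and 216 CPM at 15.2 µg/mL, a change of -1.21 ± 0.07. The low-level light chain MYL9 had 0.185 and 0.382 CPM at 380 µg/mL, against 0.916 and 0.904 CPM at 15.2 µg/mL, and its call was lost without high-dose replicate 2. The 3 that rose were SRF itself, the focal adhesion protein ZYX, with 0.51 ± 0.07, and the matricellular CCN1, with 0.57 ± 0.13 (named because they are so few). Of 11 tubulins 0 were higher, 6 lower and 5 not called, with TUBA1B at 1125 and 1147 CPM at 380 µg/mL, against 1827 and 1762 CPM at 15.2 µg/mL.

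Most markers of colon epithelium fell. Of the 12 markers 0 were higher, 9 lower and 3 not called, with a median of -0.56. Beside VIL1, the surface antigen GPA33 had 0.835 and 0.849 CPM at 380 µg/mL, against 2.52 and 3.40 CPM at 15.2 µg/mL, a change of -1.81 ± 0.24 at a low level, and the lectin LGALS4 had 271 and 248 CPM at 380 µg/mL, against 440.4 and 441 CPM at 15.2 µg/mL, a change of -0.76 ± 0.05. The factor CDX2, which specifies intestine, had 4.91 and 4.67 CPM at 380 µg/mL, against 3.39 and 4.65 CPM at 15.2 µg/mL, and was not called. In the brush border list of 28, 18 passed the filter on low counts, of which 0 were higher, 8 lower and 10 not called. DPP4, a brush border peptidase, had 16.2 and 19.1 CPM at 380 µg/mL, against 33.4 and 31.3 CPM at 15.2 µg/mL, the bundler PLS1 had 64.3 and 77.8 CPM at 380 µg/mL, against 126 and 122 CPM at 15.2 µg/mL, and the brush border myosin MYO1A fell at under 1 CPM in all 4 libraries.

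Of 20 goblet cell and mucus genes that were tested 2 were higher, 7 lower and 11 not called. ATOH1, which specifies secretory cells, had 2.69 and 3.02 CPM at 380 µg/mL, against 4.67 and 5.25 CPM at 15.2 µg/mL, the trefoil peptide TFF3 changed by -0.71 ± 0.13, the gel-forming MUC5AC had 108 and 139 CPM at 380 µg/mL, against 217 and 191 CPM at 15.2 µg/mL, and the factor KLF4 rose, with 15.5 and 13.7 CPM at 380 µg/mL, against 8.01 and 6.93 CPM at 15.2 µg/mL. The MUC5AC call was lost without high-dose replicate 2 and without low-dose replicate 2. Of 16 tested WNT targets and crypt genes 2 were higher, 8 lower and 6 not called, with a median of -0.39. The WNT feedback gene NKD1 had 0.510 and 0.892 CPM at 380 µg/mL, against 1.65 and 1.81 CPM at 15.2 µg/mL, a change of -1.28 ± 0.32 that was not called without high-dose replicate 2, and the stem cell factor ASCL2 had 1.99 and 1.91 CPM at 380 µg/mL, against 3.98 and 5.04 CPM at 15.2 µg/mL, a change of -1.21 ± 0.21. The ephrin receptor EPHB2 changed by -0.84 ± 0.18. LGR5, the crypt stem cell receptor, had 18.1 and 21.2 CPM at 380 µg/mL, against 35.1 and 34.3 CPM at 15.2 µg/mL, a change of -0.82 ± 0.08. The 2 that rose were MYC, with 352 and 340 CPM at 380 µg/mL, against 260 and 266 CPM at 15.2 µg/mL, and cyclin D1, CCND1, with 176 and 174 CPM at 380 µg/mL, against 143 and 139 CPM at 15.2 µg/mL (named because they are so few). The called members of the colon epithelium and brush border lists were thus all lower, 9 and 8 genes, with 3 and 10 not called. The crypt list held calls in both directions.

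In retinoid and aldehyde metabolism 3 of 11 tested genes were higher, 5 lower and 3 not called. ALDH2, the mitochondrial aldehyde dehydrogenase, had 21.4 and 21.02 CPM at 380 µg/mL, against 47.5 and 50.6 CPM at 15.2 µg/mL, a log2 change of -1.21 ± 0.07, beside the fall of ALDH1A1. DHRS9, a retinol dehydrogenase, rose at low levels, with 1.76 and 1.53 CPM at 380 µg/mL, against 0.595 and 0.775 CPM at 15.2 µg/mL, and its call was lost without low-dose replicate 2. STRA6, the retinol receptor, had 3.52 and 2.93 CPM at 380 µg/mL, against 5.31 and 4.95 CPM at 15.2 µg/mL, a change of -0.67 ± 0.16.

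SQSTM1, FLCN and RRAGC rose. In the list of folliculin, TFEB and lysosomal signalling 8 of 22 tested members were higher, 3 lower and 11 not called, with a median of 0.07 that was 0.16 without high-dose replicate 3. SQSTM1, the autophagy receptor p62 (ENSG00000161011, chromosome 5, 179806398 to 179838078), had 909 and 834 CPM at 380 µg/mL, against 362 and 362 CPM at 15.2 µg/mL, a log2 change of 1.27 ± 0.05 (adjusted p 3.28e-23). FLCN, folliculin, had 34.3 and 33.5 CPM at 380 µg/mL, against 17.4 and 17.8 CPM at 15.2 µg/mL, a change of 0.94 ± 0.08, and RRAGC, a Rag GTPase that it acts on, had 42.9 and 44.7 CPM at 380 µg/mL, against 24.2 and 23.1 CPM at 15.2 µg/mL, a change of 0.89 ± 0.06. Both high-dose libraries of each gene lay above both low-dose libraries, with means 2.41-fold, 1.92-fold and 1.86-fold higher. DEPTOR, an inhibitor of mTOR, had 2.73 and 2.85 CPM at 380 µg/mL, against 5.59 and 6.20 CPM at 15.2 µg/mL, a change of -1.08 ± 0.17. The factors TFEB and TFE3 had log2 changes of -0.04 ± 0.10 and 0.09 ± 0.05 and were not called (chosen after their values were seen). The core of the element that these factors bind, GTCACGTGA, was in 0.84% of all promoters and in 2 of the 16 with an entry here, MCOLN1 and ATP6V0D1, neither of which was called, so no such promoter is shown. Lysosomal enzymes and membrane proteins had no shared direction, with 5 higher, 7 lower and 10 not called of 22, the 5 being 3 without high-dose replicate 2 or either low-dose library. NEU1, a sialidase, had 90.3 and 89.1 CPM at 380 µg/mL, against 49.0 and 53.6 CPM at 15.2 µg/mL, a change of 0.81 ± 0.06, while PSAP, the saposin precursor, had 351 and 324 CPM at 380 µg/mL, against 457 and 469.8 CPM at 15.2 µg/mL, a change of -0.46 ± 0.04. Beta-galactosidase, GLB1, changed by -0.42 ± 0.06, and the call of the protease CTSL was lost in each fit that left out 1 of the 4 libraries.

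The NRF2 list split in direction. Of 26 members 11 were higher, 10 lower and 5 not called, with a median of 0.12 that was 0.06 without low-dose replicate 2 and 0.19 without low-dose replicate 3. Beside the ferritin chains, OSGIN1, an oxidative stress growth inhibitor, had 35.3 and 28.9 CPM at 380 µg/mL, against 13.4 and 13.9 CPM at 15.2 µg/mL, a log2 change of 1.23 ± 0.10. HMOX1, which degrades heme, had 18.9 and 18.8 CPM at 380 µg/mL, against 10.5 and 10.1 CPM at 15.2 µg/mL, a change of 0.87 ± 0.09. The lower ones were led by enzymes of the pentose phosphate pathway, which supplies NADPH. TKT had 316 and 279 CPM at 380 µg/mL, against 530 and 531 CPM at 15.2 µg/mL, a change of -0.83 ± 0.06. PGD and TALDO1 of the same pathway also fell, by 0.66 and 0.61, and the quinone reductase NQO1 by 0.70, whereas GCLC, of glutathione synthesis, had 0.66 ± 0.06 (named after their values were seen). The call of the cystine carrier SLC7A11, with 0.36 ± 0.14, was lost without high-dose replicate 3 or either low-dose library.

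Several growth-factor feedback genes rose. Of 24 tested ERK feedback and early growth-factor targets 11 were higher, 2 lower and 11 not called, with a median of 0.30. DUSP5, a phosphatase that acts on nuclear ERK, had 10.2 and 8.96 CPM at 380 µg/mL, against 3.71 and 4.09 CPM at 15.2 µg/mL, a log2 change of 1.29 ± 0.14 (adjusted p 3.44e-10). FOSL1, an AP-1 factor, had 48.2 and 47.7 CPM at 380 µg/mL, against 26.1 and 31.0 CPM at 15.2 µg/mL, a change of 0.75 ± 0.11. FOSB, another, had 6.21 and 6.29 CPM at 380 µg/mL, against 3.94 and 4.48 CPM at 15.2 µg/mL, a change of 0.57 ± 0.17 that was not called without low-dose replicate 2. SPRY3, a Sprouty inhibitor of the pathway, was 1 of the 2 that fell, with 4.03 and 4.33 CPM at 380 µg/mL, against 6.41 and 6.93 CPM at 15.2 µg/mL, a change of -0.67 ± 0.17. DUSP6, a phosphatase of cytoplasmic ERK, had 60.6 and 63.5 CPM at 380 µg/mL, against 59.0 and 63.9 CPM at 15.2 µg/mL, and was not called (chosen after its value was seen). Of 6 tested ligands of the EGF receptor 4 were higher, 0 lower and 2 not called. EREG had 107 and 121 CPM at 380 µg/mL, against 79.1 and 75.9 CPM at 15.2 µg/mL, a change of 0.56 ± 0.09, HBEGF had 11.9 and 12.4 CPM at 380 µg/mL, against 8.70 and 8.74 CPM at 15.2 µg/mL, a change of 0.47 ± 0.12, and TGFA had 92.4 and 100.0 CPM at 380 µg/mL, against 71.8 and 72.2 CPM at 15.2 µg/mL, a change of 0.42 ± 0.04. AREG rose by 0.26 ± 0.08, a call lost without low-dose replicate 3.

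Of 15 tested NF-kB feedback genes and chemokines 5 were higher, 0 lower and 10 not called (33.3% called, against 29.4% of all genes tested). The list's median was 0.33, and 0.51 without low-dose replicate 3. The adhesion molecule ICAM1 had 8.95 and 8.45 CPM at 380 µg/mL, against 4.12 and 4.65 CPM at 15.2 µg/mL, a change of 0.98 ± 0.13, and TNFAIP2 had 145 and 133 CPM at 380 µg/mL, against 86.9 and 86.7 CPM at 15.2 µg/mL, a change of 0.67 ± 0.05. NFKBIZ, a nuclear regulator of the pathway, changed by 0.61 ± 0.09 and the subunit RELB by 0.50 ± 0.11. The chemokine CXCL8 had 5.75 and 6.88 CPM at 380 µg/mL, against 6.23 and 6.97 CPM at 15.2 µg/mL, and was not called (chosen after its value was seen). Interferon-stimulated genes split, with 5 higher, 5 lower and 13 not called of 23, and each count was as low as 3 without low-dose replicate 2. The lower count was also 3 without high-dose or low-dose replicate 3. OAS3, a sensor of double-stranded RNA, had 53.4 and 50.2 CPM at 380 µg/mL, against 89.5 and 93.3 CPM at 15.2 µg/mL, a fall of 0.82, while IFIT2 had 7.97 and 8.45 CPM at 380 µg/mL, against 3.85 and 5.17 CPM at 15.2 µg/mL, a rise of 0.86. IFIT1 rose by 0.68, a call lost without high-dose replicate 3 and without low-dose replicate 2.

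Among nuclear RNAs and splicing regulators 6 of 21 were higher, 0 lower and 15 not called (28.6% called, against 29.4% of all genes tested). NEAT1, the RNA scaffold of paraspeckles (ENSG00000245532, chromosome 11, 65422774 to 65445540), had 797 and 734 CPM at 380 µg/mL, against 354 and 311 CPM at 15.2 µg/mL, a log2 change of 1.20 ± 0.09. MALAT1, a nuclear RNA of splicing speckles, had 1256 and 1057 CPM at 380 µg/mL, against 758 and 751 CPM at 15.2 µg/mL, a change of 0.62 ± 0.15. The small nucleolar host genes SNHG1 and SNHG12 rose by 0.30 and 0.29, the second call being lost without high-dose or low-dose replicate 2. Without high-dose replicate 2 the count was 3. CLK3 and GAS5 were the other 2 that rose, and none of the 10 SRSF and TRA2 splicing factor genes listed was called.

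Genes of cell division were in part lower. Of 25 members 0 were higher, 14 lower and 11 not called, with a median of -0.29. TOP2A, which untangles DNA, had 225 and 244 CPM at 380 µg/mL, against 529 and 500.1 CPM at 15.2 µg/mL, a log2 change of -1.14 ± 0.10, and the kinetochore motor CENPE had 32.2 and 42.1 CPM at 380 µg/mL, against 78.4 and 80.9 CPM at 15.2 µg/mL, a change of -1.10 ± 0.29 that was not called without high-dose replicate 2. KIF20A, a kinesin of cytokinesis, had 41.0 and 44.5 CPM at 380 µg/mL, against 66.9 and 63.3 CPM at 15.2 µg/mL, a change of -0.60 ± 0.05, and CENPF, of the kinetochore, changed by -0.77 ± 0.19. The cell cycle kinase CDK1 had 79.6 and 82.1 CPM at 380 µg/mL, against 80.4 and 81.3 CPM at 15.2 µg/mL, and was not called (chosen after its value was seen). Of 28 DNA replication genes 4 were higher, 12 lower and 12 not called, with a median of -0.03. RRM1, the large subunit of ribonucleotide reductase, had 110.4 and 111 CPM at 380 µg/mL, against 255 and 254 CPM at 15.2 µg/mL, a change of -1.20 ± 0.04 (adjusted p 3.95e-26), whereas RRM2, its small subunit, had 293 and 309 CPM at 380 µg/mL, against 291 and 298 CPM at 15.2 µg/mL, and was not called (chosen after its value was seen). The polymerase subunit POLA1 had 21.7 and 24.5 CPM at 380 µg/mL, against 48.3 and 43.1 CPM at 15.2 µg/mL, and MCM2, of the helicase, had 164 and 142 CPM at 380 µg/mL, against 231 and 232 CPM at 15.2 µg/mL, both lower. The 4 that rose are licensing and early S-phase genes, MCM10, CCNE2, CDC6 and CDT1, by 0.30 to 0.59.

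Of 18 p53-linked genes 3 were higher, 5 lower and 10 not called, the 5 being 3 without high-dose or low-dose replicate 2. CDKN1A, the p21 inhibitor of the cell cycle, had 20.9 and 20.1 CPM at 380 µg/mL, against 10.3 and 11.4 CPM at 15.2 µg/mL, a change of 0.92 ± 0.10, and the kinase PLK3 had 22.4 and 21.1 CPM at 380 µg/mL, against 12.5 and 13.0 CPM at 15.2 µg/mL, while BBC3, the death protein PUMA, had 4.59 and 4.16 CPM at 380 µg/mL, against 7.60 and 8.65 CPM at 15.2 µg/mL, a change of -0.90 ± 0.16, and TP53INP1 changed by -0.80 ± 0.20. Ribosome biogenesis had 7 higher, 6 lower and 11 not called of 24, led by RRP12 at -0.51 ± 0.06 and WDR43 at 0.45 ± 0.07 (log2). Without high-dose replicate 2 these counts were 3 higher and 7 lower, and without high-dose or low-dose replicate 3 they were 6 higher and 3 lower. Of 28 cytosolic ribosomal proteins 0 were higher, 7 lower and 21 not called (25.0% called, against 29.4% of all genes tested). Their log2 changes ran from -0.24 in RPL5 to 0.20 in RPS14 over the 28. The calls of RPL30, RPL5 and RPS4X were each lost without 1 or more of the 4 libraries, and the count of lower genes was 2 without high-dose replicate 3, 4 without low-dose replicate 2 and 3 without low-dose replicate 3.

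Only some of the listed targets of the xenobiotic receptors passed the filter on low counts. Of 7 tested AHR targets 1 was higher, 2 were lower and 4 not called (42.9% called, against 29.4% of all genes tested). ALDH3A1, an aldehyde dehydrogenase, had 15.1 and 13.7 CPM at 380 µg/mL, against 24.7 and 24.7 CPM at 15.2 µg/mL, and fell by 0.78, NQO1, which is on this list too, fell by 0.70, and the AHR-induced TIPARP had 99.3 and 107 CPM at 380 µg/mL, against 85.0 and 83.9 CPM at 15.2 µg/mL, and rose by 0.29. CYP1A1, the classical AHR target, had 0.881 and 0.255 CPM at 380 µg/mL, against 0.366 and 0.474 CPM at 15.2 µg/mL, and was not called (chosen after its value was seen). Of 6 tested PXR and CAR targets 1 (16.7%) was called. This was UGT1A1, which conjugates bilirubin, with 58.9 and 62.4 CPM at 380 µg/mL, against 51.1 and 49.7 CPM at 15.2 µg/mL. Of 6 tested metallothioneins and zinc-response genes 0 were called in the edgeR model of 56 libraries and 0 with DESeq2, while 1 had an unadjusted p under 0.05. In edgeR 1 was lower with the set 11 libraries alone, with or without the replicate block, with the 4 libraries alone and without the filter on low counts. MT1E had 35.3 and 34.7 CPM at 380 µg/mL, against 42.2 and 44.7 CPM at 15.2 µg/mL, and the zinc exporter SLC30A1 had 37.7 and 43.3 CPM at 380 µg/mL, against 40.4 and 40.2 CPM at 15.2 µg/mL. Of 15 tight junction genes 2 were higher, 2 lower and 11 not called (26.7% called, against 29.4% of all genes tested). MARVELD3 had 39.0 and 39.3 CPM at 380 µg/mL, against 25.6 and 25.8 CPM at 15.2 µg/mL, a rise of 0.61, and the falls of TJP3 and F11R and the rise of CLDN4 each lost their call without 1 or more libraries.

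Markers of other cell types were few. The fibroblast gene COL1A1 had 0.927 and 0.977 CPM at 380 µg/mL, against 1.74 and 1.64 CPM at 15.2 µg/mL, and the other fibroblast marker tested, LUM, had 0.927 and 0.552 CPM at 380 µg/mL, against 0.824 and 1.16 CPM at 15.2 µg/mL. Of the blood cell markers LYZ, a lysozyme that gut secretory cells also make, had 978 and 992 CPM at 380 µg/mL, against 1452 and 1484 CPM at 15.2 µg/mL, and fell by 0.58, and CD14 and CD68 were not called. Of 3 tested hepatocyte markers SERPINA1, an antiprotease that gut epithelium also makes, had 183 and 172 CPM at 380 µg/mL, against 319.8 and 339.6 CPM at 15.2 µg/mL, and fell by 0.89. The fibroblast markers summed to 1.85 and 1.53 CPM at 380 µg/mL, against 2.56 and 2.80 CPM at 15.2 µg/mL. Their part in any result was not tested. The COL1A1 call was lost in 4 of 4 fits that left out 1 library.

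**Figure D3:**
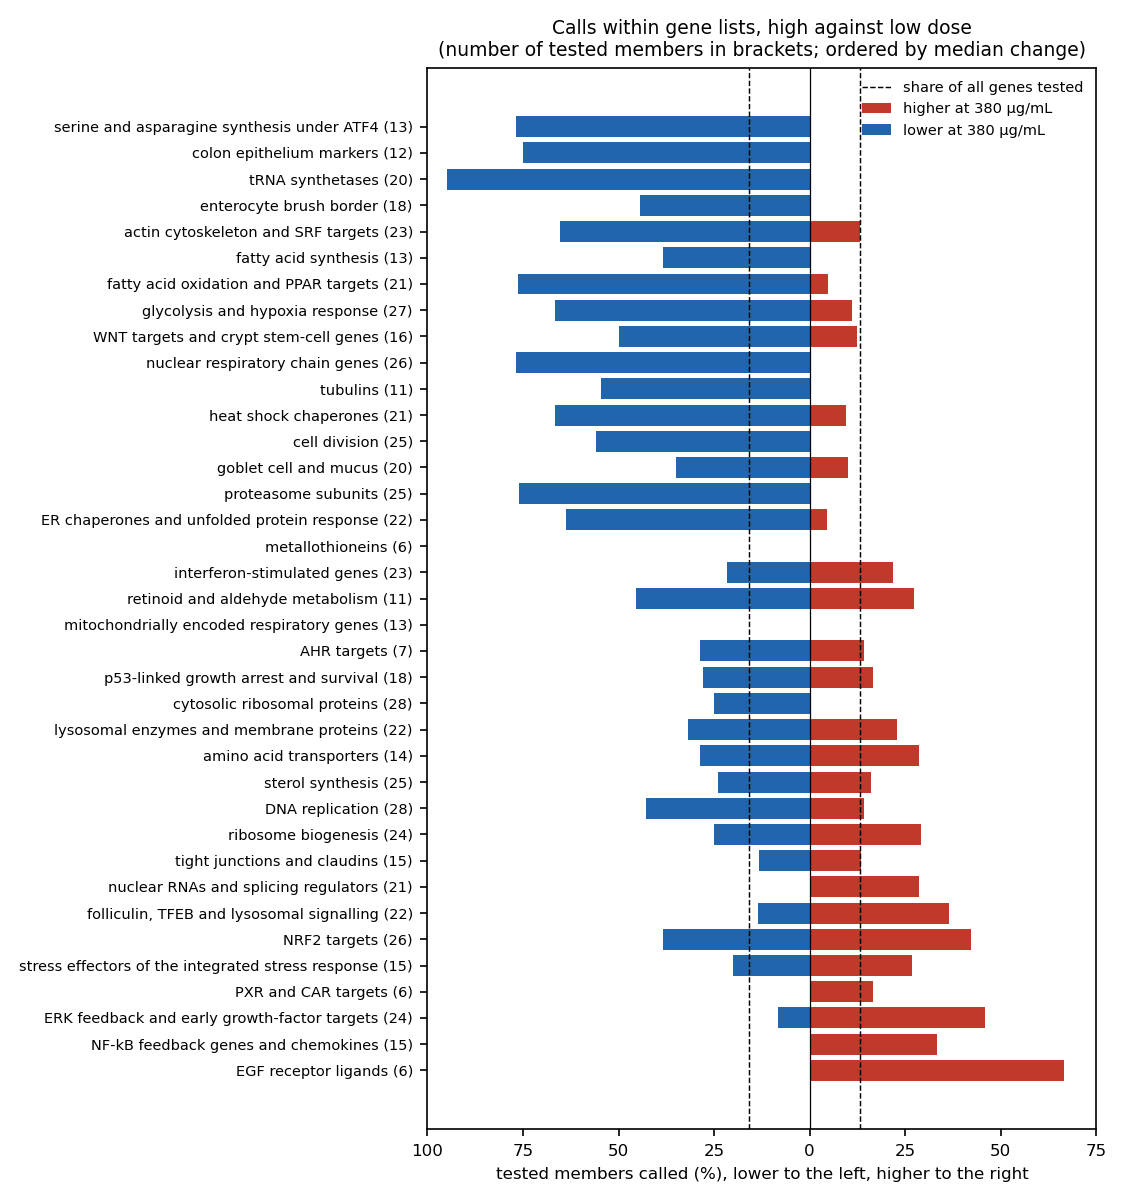
Percentage of tested members called lower (left, blue) and higher (right, red) at 380 against 15.2 µg/mL for each list with at least 5 tested members, ordered by median change. Dashed lines mark the shares over all genes tested, 16.0% lower and 13.3% higher. Among protein-coding genes alone 34.8% were called in either direction, against 29.4% of all genes tested. Lists and members were chosen with earlier results of these data known, so a distance from the lines is a description only. The tRNA synthetases show 19 of 20 members lower, and the EGF receptor ligands 4 of 6 higher.

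The difference between high and low dose was then set against that of other extracts, in the same model, by testing the difference of the log2 changes (edgeR interaction contrast). Aucklandiae Radix at 370 against 14.8 µg/mL gave 9969 called genes, and Guibi-tang at 500 against 20 µg/mL gave 3042. The doses differ between extracts, and no library is shared. The change differed between Polygalae Radix and Aucklandiae Radix for 7907 genes (46.6%) and between Polygalae Radix and Guibi-tang for 3347 (19.7%). Among genes called in both, 1115 of 1490 shared with Guibi-tang and 2514 of 3693 shared with Aucklandiae Radix had the same direction. Over all 16978 genes tested the log2 changes were only weakly correlated, with a Pearson r of 0.07 for Guibi-tang and 0.16 for Aucklandiae Radix. The difference and both changes were called, in opposite directions, for 1179 genes with Aucklandiae Radix. Of these 428 were higher at the high dose of Polygalae Radix and lower at that of Aucklandiae Radix, and 751 the reverse. With Guibi-tang this held for 375 genes, 85 and 290.

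Proteasome and ER chaperone genes moved in opposite directions with Aucklandiae Radix. The change of all 25 proteasome subunits differed between the extracts: 0 were higher and 19 lower with Polygalae Radix (median -0.26), against 25 higher and 0 lower with Aucklandiae Radix (median 0.65). PSMD2 changed by -0.62 with Polygalae Radix and by 0.90 with Aucklandiae Radix, a difference of -1.52 ± 0.08 (SE, adjusted p 5.61e-21). Of the 22 ER chaperone genes 20 differed, with 1 higher and 14 lower against 19 higher and 0 lower. HSPA5 changed by -0.59 with Polygalae Radix, against 1.06 with Aucklandiae Radix, where it averaged 871 CPM at 370 µg/mL and 419 CPM at 14.8 µg/mL. The heat shock chaperones had 2 higher and 14 lower with Polygalae Radix, against 12 higher and 6 lower with Aucklandiae Radix. HSP90AB1 fell with both, by 0.82 and 0.21, as did HSPD1, by 0.81 and 0.39, and HSPA4L, by 0.70 and 0.60. For the tRNA synthetases the change differed for 19 of 20, with 19 lower against 10 higher and 4 lower.

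Asparagine synthetase gave the largest opposite pair among the named genes. ASNS changed by -1.42 with Polygalae Radix and by 1.71 with Aucklandiae Radix, a difference of -3.13 ± 0.08 (SE, adjusted p 3.35e-30), and it averaged 178 CPM at 370 µg/mL and 54.6 CPM at 14.8 µg/mL of Aucklandiae Radix. The serine and asparagine list as a whole did not run opposite. It had 0 higher and 10 lower with Polygalae Radix (median -0.75), against 2 higher and 11 lower with Aucklandiae Radix (median -0.37). The change differed for 10 of its 13 genes. PHGDH fell in both, by 1.65 and 1.07. In glycolysis 25 of 27 genes differed. PKM changed by -1.17 with Polygalae Radix, against 0.74 with Aucklandiae Radix, and LDHA by -0.99, against 0.48.

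Some groups or single genes moved alike in direction. Of the cell division genes 0 were higher and 14 lower with Polygalae Radix, against 0 higher and 25 lower with Aucklandiae Radix, and the size differed for 22 of 25. TOP2A changed by -1.14, against -1.60. The folliculin list had 8 higher and 3 lower with Polygalae Radix (median 0.07), against 19 higher and 1 lower with Aucklandiae Radix (median 0.90). The change differed for 17 of its 22 genes. Its member RRAGC changed by 0.89 with Polygalae Radix and 0.96 with Aucklandiae Radix, a difference of -0.07 ± 0.08 (SE) that was not called. SQSTM1 rose in both, by 1.27 and 2.29, a difference of -1.03 ± 0.07. VIL1 fell in both, by 1.58 and 0.79, and ALDH1A1 by 1.61 and 1.60, a difference of -0.01 ± 0.06 that was not called.

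Guibi-tang, a formula whose usual recipe holds both roots, differed in the NRF2 list. All 26 members were higher at its high dose (median 0.77), against 11 higher and 10 lower with Polygalae Radix, and the change differed for 21. This was not particular to Guibi-tang. With Aucklandiae Radix 24 were higher and 0 lower (median 1.19), and the change differed from Polygalae Radix for 24. NQO1 changed by -0.70 with Polygalae Radix, against 0.73 with Guibi-tang and 0.66 with Aucklandiae Radix. ALDH1A1 changed by -1.61 with Polygalae Radix, against 0.26 with Guibi-tang, a difference of -1.87, and ALDH3A1 by -0.78, against a rise with Guibi-tang, a difference of -2.49. For the tRNA synthetases the change differed from Guibi-tang for 19 of 20 genes, with 4 higher and 1 lower there. GDF15 rose by 1.28 with Polygalae Radix, against 0.07 with Guibi-tang, a difference of 1.21 that was called.

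**Figure D4:**
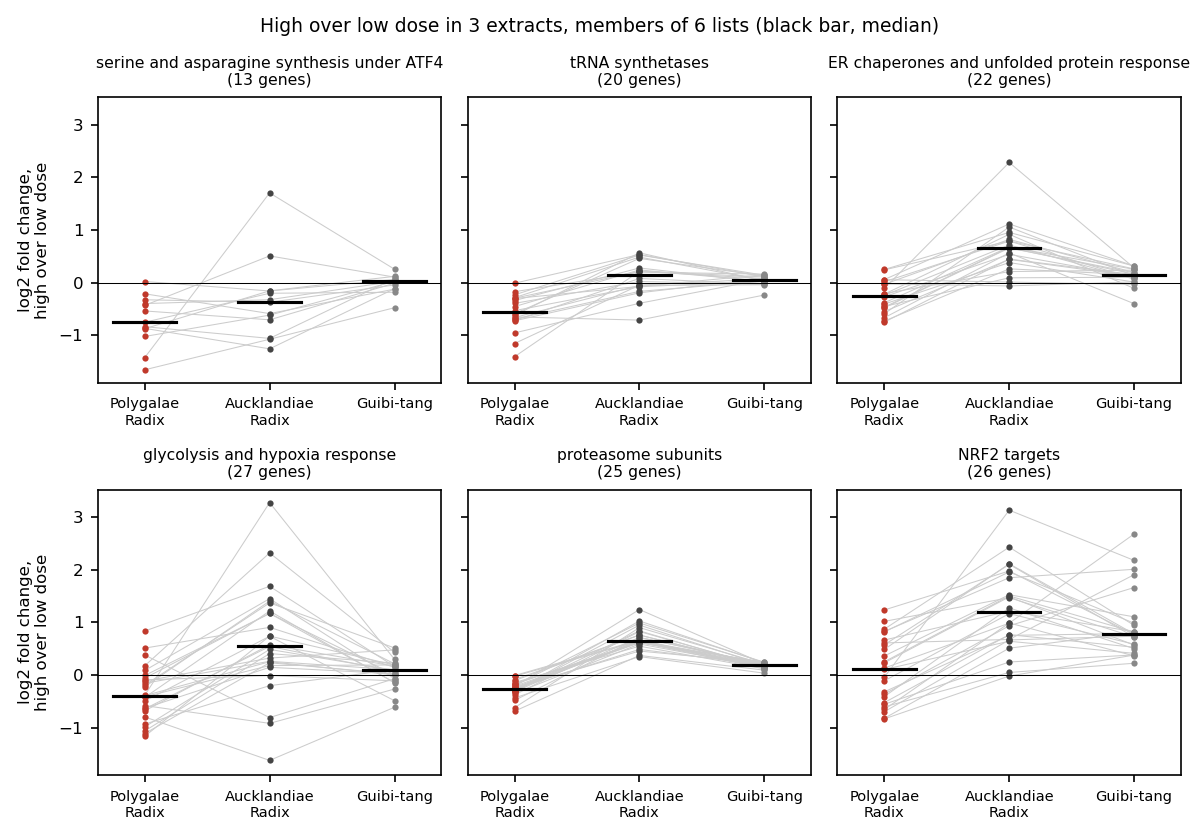
Log2 fold change of high over low dose for each tested member of 6 lists (points, joined by gene) in Polygalae Radix, Aucklandiae Radix and Guibi-tang, with the median as a black bar. Proteasome, ER chaperone and tRNA synthetase genes lie mostly under 0 in Polygalae Radix, with medians above 0 in Aucklandiae Radix, and all 26 NRF2 targets lie above 0 in Guibi-tang.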

How the data were processed

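RNA was sequenced as 100 bp paired-end reads from a directional kit, per the labels' protocols. The authors deposited 1 table of RSEM expected counts per gene for 60 libraries, made with FastQC 0.11.9, Trim Galore 0.6.5, STAR 2.7.3a and RSEM 1.3.3 on hg38, as the submitters' processing notes list them. Neither the gene annotation used for counting nor its strand setting is given in the sources used here. RSEM divides reads shared by similar genes, which makes 10% of values not whole and can move reads between a gene and its pseudogenes.

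Expected counts were rounded to whole numbers. In edgeR 4.0.16 (R 4.3.3), TMM scaling, filterByExpr by group and a quasi-likelihood F-test (two-sided) were run on 56 libraries in 22 groups (34 residual degrees of freedom), without Okbyeongpung-san, which has 1 library a dose, and the outlying library. P-values were adjusted by Benjamini-Hochberg over 16978 genes. SE is the log2 change divided by the root of F. Counts were also simulated from the model's own negative binomial spread, with 200 changed genes that averaged at least 5 CPM. On these the test recovered 100 of 100 genes changed by 1 on the log2 scale and 89 of 100 changed by 0.5. It made 4 false calls among 16885 genes. Recovery at lower levels, or with as many changed genes as in the data, was not tested. Positions are from GENCODE 29 on GRCh38, and promoters from RefSeq, GRCh38.p14.

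Gene lists and their members were chosen with earlier results of these data known. The genes named are the 12 largest rises and falls (called, not overlapping, at least 5 CPM in either group), the 6 called genes with the highest CPM, and in each list the 4 called members with the largest change, or the 2 highest where none was called. Genes named for a promoter or as the few exceptions of a list, and the promoters of tRNA synthetases and HSPA8, were chosen after their values were seen. A few genes that the rule names are not reported here. Alternatives were RLE scaling, DESeq2 1.42.0, no filter, other sets of libraries, a replicate block and leaving out each library.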

Additional observations from a re-analysis of the deposited data

Results flagged for a closer look

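The change at 380 against 15.2 µg/mL of Polygalae Radix differed, by edgeR's test of the difference itself, from that of Aucklandiae Radix for 7907 genes and from that of Guibi-tang for 3347 genes. The genes listed here are named ones for which the difference and both extracts' own changes were called and the changes ran in opposite directions. Values are the log2 change with Polygalae Radix minus that with the other extract, so a negative one means a change that was lower with Polygalae Radix. The doses differ between extracts, and no cause was tested.

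Against Aucklandiae Radix most of these had a negative difference. In amino acid and stress metabolism these were ASNS at -3.13, CHAC1 at -2.98, EPRS1 at -1.62 and the glutamate carrier SLC1A1 at -0.57. In glycolysis and fat oxidation PKM stood at -1.90, LDHA at -1.47, ENO1 at -1.47, PGK1 at -1.35, HADHA at -1.54 and HADHB at -1.26. Among chaperones HSPA5 stood at -1.65, HSP90AA1 at -1.25, CRELD1 at -1.23, HSP90B1 at -1.20 and PDIA3 at -0.99. The proteasome subunits were PSMD2 at -1.52, PSMB3 at -1.19, PSMD1 at -1.06 and PSMA4 at -0.79. Cytoskeletal and epithelial genes were TLN1 at -1.75, TUBA1A at -1.68, TUBA4A at -0.90, ACTB at -1.18, KRT8 at -0.97, DPP4 at -1.85, TJP3 at -0.49 and F11R at -0.47. The others were PSAP at -1.72, COL1A1 at -1.44, NQO1 at -1.36, EEF1A1 at -0.80 and RRP12 at -0.69. The Polygalae Radix calls of COL1A1 and F11R were lost without any 1 of its 4 libraries, and that of TJP3 without 3 of the 4.

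The 5 positive differences from Aucklandiae Radix were UGT1A1 at 2.16, MARVELD3 at 0.95, SNHG1 at 0.93, TNFAIP2 at 0.84 and SNHG12 at 0.70.

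Against Guibi-tang the negative differences were ALDH3A1 at -2.49, ALDH1A1 at -1.87, SERPINA5 at -1.82, ASNS at -1.68, NQO1 at -1.43, PKM at -1.35, ENO1 at -1.29, TKT at -1.21 and PDIA3 at -0.88. Smaller ones were PSMD2 at -0.83, HSPA5 at -0.72, PSMB3 at -0.69, RRP12 at -0.66, TUBA4A at -0.66 and PSAP at -0.59. The positive ones were the interferon-stimulated IFIT1 at 1.30 and IFIT2 at 1.39.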

How the results depend on the processing

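The largest dependence was on the library labelled Saposhnikoviae Radix low replicate 2. With it in the shared spread (57 libraries), 1459 genes were called, 484 higher and 975 lower, the difference from Aucklandiae Radix was called for 3790 genes and that from Guibi-tang for 720, and 51 of the 161 named genes lost their call. The lower proteasome subunits were then 3, the lower nuclear respiratory genes 9 and the lower tRNA synthetases 15, with list medians of -0.27 for the proteasome and -0.57 for the tRNA synthetases. Leaving out each of the 4 Polygalae Radix libraries gave 3672 to 4078 called genes, 1480 to 1969 higher and 2035 to 2210 lower, with 1480 higher and 2210 lower without high-dose replicate 2. It gave 7074 to 7294 and 2434 to 3156 differences from the 2 other extracts, and 8 to 12 named genes lost their call. The fits that leave 1 library in a group assume that it varies like the other groups. With the 4 libraries alone 3610 genes were called, with RLE size factors 4976, with DESeq2 4616 and without the filter on low counts 4538 of 35975. No called named gene changed direction under the alternatives run. In 14 combinations of a list and an alternative the list's median changed sign, as for the stress effectors, with -0.02 without high-dose replicate 2, against 0.14. The replicate numbers were not taken to pair the Polygalae Radix doses: the deviations of replicate 2 from 3 correlated at -0.07 across 10598 genes between them, and at -0.17 to 0.61 over the 15 pairs of groups in set 11. With a replicate block over the libraries of set 11, 5086 genes were called, more of them higher (2560) than lower (2526), against 4916, 2454 higher and 2462 lower, without it. Depth limits genes under about 1 CPM, where only large changes were called.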
